A study of Oryza sativa with 6 samples.

Results

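Iron is carried through rice as complexes with small chelators and is stored in ferritin shells inside plastids. Nicotianamine synthases (NAS) make nicotianamine, which binds iron in the plant and is also the precursor of deoxymugineic acid, the compound that grasses release to fetch ferric iron from soil. Transporters of the yellow stripe-like (YSL) family move the loaded chelators across membranes, and leaf chloroplasts, where iron is needed for photosynthesis and chlorophyll synthesis, are a main destination. The genes described here are 10 rice loci chosen by locus ID for known roles, with earlier results of these data known, in chelator synthesis (NAS1, NAS2 and NAS3), chelator and iron transport (TOM1, YSL15, YSL2 and IRT1) and storage (FER1, FER2 and VIT2). Of these 10, 4 are rows of the table used here, out of 19696 rows in all: NAS3 (Os07g0689600, chromosome 7), YSL2 (Os02g0649900, chromosome 2), FER1 (Os11g0106700, chromosome 11) and FER2 (Os12g0106000, chromosome 12). The other 6 were not analysed here: NAS1 (Os03g0307300), NAS2 (Os03g0307200), TOM1 (Os11g0134900), YSL15 (Os02g0650300), IRT1 (Os03g0667500) and VIT2 (Os09g0396900). IRT1 takes up ferrous iron, TOM1 exports deoxymugineic acid and YSL15 imports its iron complex, and all of these are known mainly from iron-starved roots. With NAS1, NAS2 and VIT2 not analysed either, the results below cover the 4 listed genes and not the whole leaf side of the pathway.

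RNA sequencing compared leaves of the japonica variety ZH11, the wild type (3 libraries), with leaves of DGP1-OE1, a single line that overexpresses DGP1 (3 libraries). Earlier work on DGP1 described it as a repressor of greening in the glumes of rice. All seedlings were 3 weeks old and had grown on MS medium at reduced strength under what the labels call normal conditions, so no iron treatment was applied. The labels give neither the promoter of the overexpression construct nor whether a library is 1 plant or a pool, and p-values therefore measure a spread between libraries that may be technical. Values are FPKM, fragment numbers scaled to transcript length and library size, with no counts. They summed to between 686327 and 752618 per library over the listed rows. The locus IDs carry no names in the table, so the level of DGP1 and leaf marker genes were not checked, and the member names are those given with their IDs. Across the 18270 tested rows, on the log2(FPKM + 1) scale and as a description, ZH11 replicate 2 was more like DGP1-OE1 replicates 2 and 1 (Pearson's r of 0.942 and 0.940) than like ZH11 replicates 1 and 3 (0.938 and 0.930). ZH11 replicate 3 was also more like DGP1-OE1 replicate 1 (0.937) than like ZH11 replicates 1 and 2 (0.933 and 0.930). DGP1-OE1 replicate 2 was least like ZH11 replicates 1 and 3 (0.899 and 0.893), and its r with DGP1-OE1 replicate 3 was 0.913. The libraries thus did not group cleanly by genotype, and not only through the replicates numbered 2. Results that rest on the replicates numbered 2 are given with and without them. In leaf tissue, fewer cells of a type and less RNA per cell cannot be told apart.

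YSL2 stood lower and NAS3 higher in every DGP1-OE1 library than in any ZH11 library, and the 2 ferritin genes overlapped widely between the genotypes. None of the 4 passed the adjusted threshold. In the limma fit of log2(FPKM + 1) over 18270 tested rows, 0 of the 4 listed members had an adjusted p under 0.05, against 0.356% of all tested rows (0.159% higher and 0.197% lower in DGP1-OE1). An unadjusted p under 0.05 was reached by 2 of the 4, YSL2 and NAS3, against 8.8% of all tested rows. Those 2 genes were also the members whose genotypes did not overlap, which held for 13.9% of all tested rows, 6.72% higher and 7.19% lower in DGP1-OE1. With 4 members these shares say nothing particular about iron genes. The median log2 difference (DGP1-OE1 minus ZH11) was 0.24 over the 4 members and -0.01 over all tested rows.

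**Figure D1:**
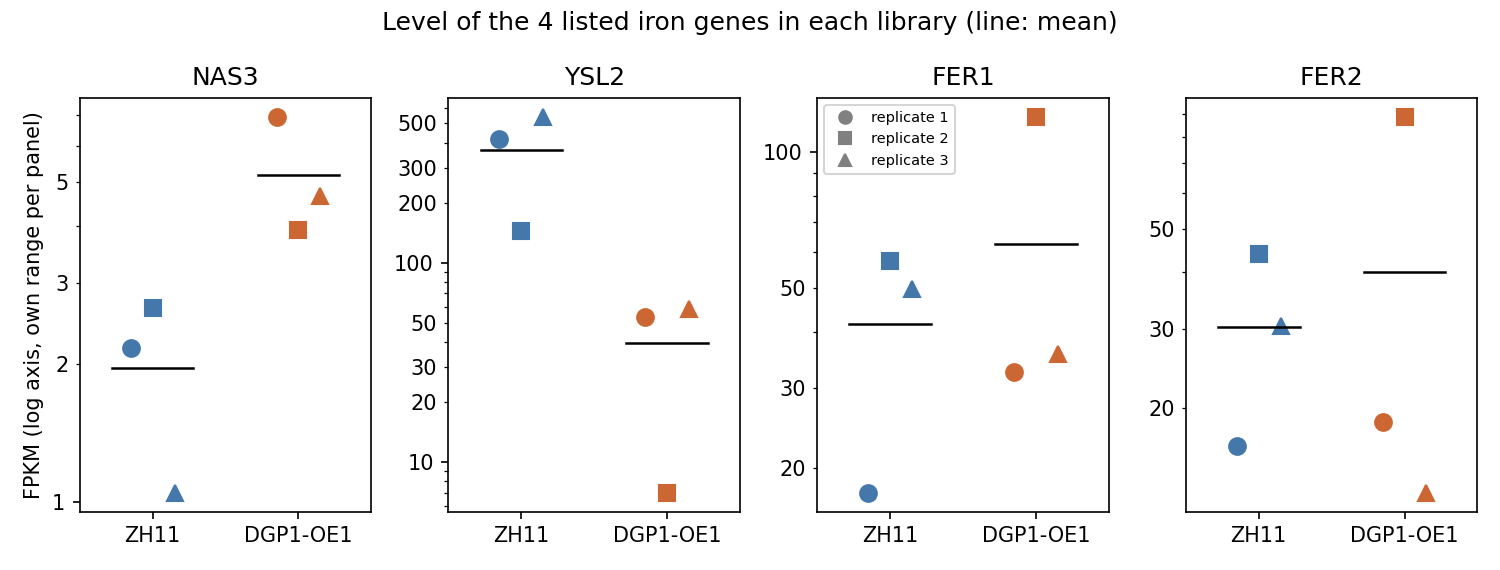
FPKM of NAS3, YSL2, FER1 and FER2 in each library, on a log axis with its own range in each panel; symbols mark the replicate number and the line is the mean of 3 libraries. YSL2 lay between 144 and 540 FPKM in ZH11 and between 6.95 and 58.5 FPKM in DGP1-OE1, while both ferritin genes were highest in DGP1-OE1 replicate 2.

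NAS3 encodes a nicotianamine synthase, and in rice leaves its transcript is known to fall under iron shortage, unlike those of NAS1 and NAS2. NAS3 was a low transcript here, at 2.17, 2.66 and 1.05 FPKM in ZH11 replicates 1, 2 and 3. The DGP1-OE1 replicates 1, 2 and 3 had 6.93, 3.92 and 4.66 FPKM. The lowest DGP1-OE1 library was above the highest ZH11 library, and the narrowest gap lay between the replicates numbered 2. Its mean was 1.96 ± 0.827 FPKM for ZH11 and 5.17 ± 1.57 FPKM for DGP1-OE1 (SD, n = 3 each), 2.64 times as high in the overexpressor. The log2 difference was 1.07 with an SE of 0.37 and a 95% interval of 0.27 to 1.88, and it did not pass the threshold (limma, adjusted p = 0.391). Measured within libraries, NAS3 lay above 12.1% to 24.1% of all rows in ZH11 and above 33.1% to 48.6% in DGP1-OE1. It was thus below the middle of the listed rows in every library, narrowly so in DGP1-OE1 replicate 1. A rise as large or larger was fitted for 247 of the 18270 tested rows. Because 1 FPKM is added before the logarithm, the fitted difference understates the change of a gene this low, and with an added 0.1 FPKM it was 1.41 (limma, adjusted p = 0.449). Reads that NAS3 shares with its paralogs may have been assigned to either, since the counting rule is not given in the sources used here.

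YSL2 encodes a transporter of iron and manganese bound to nicotianamine that is active in the phloem, and in rice its transcript is known to rise in leaves short of iron. It was an abundant transcript of the wild type, at 420, 144 and 540 FPKM in ZH11 replicates 1, 2 and 3. In DGP1-OE1 replicates 1, 2 and 3 it stood at 53.4, 6.95 and 58.5 FPKM. The highest overexpressor library was below the lowest wild-type library, ZH11 replicate 2, and DGP1-OE1 replicate 2 lay far below its own group. By rank from the top, YSL2 was 189th, 672nd and 153rd of 19696 rows in the ZH11 libraries and 1980th, 10529th and 1676th in the DGP1-OE1 libraries.

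The mean of YSL2 was 368 ± 203 FPKM for ZH11 and 39.6 ± 28.4 FPKM for DGP1-OE1 (SD, n = 3 each), 9.29 times as high in the wild type. An exact permutation test of the FPKM means gave a two-sided p = 0.1, the smallest that 3 against 3 libraries allow. Any row without overlap between the genotypes gets that value, as NAS3 also did, so it only restates the lack of overlap. The log2 difference of YSL2 was -3.44 with an SE of 0.69 and a 95% interval of -4.97 to -1.92. Only 16 of the 18270 tested rows, YSL2 included, had a difference this low. By p it was placed 86th, and it missed the threshold after adjustment (limma, adjusted p = 0.0905). Its spread was wide as well: the SD of its log2 values within genotypes was 1.36, larger than that of 99.4% of the tested rows. Leaving out a library numbered 2 changed the call. Without DGP1-OE1 replicate 2 the log2 difference was -2.50 and passed (limma, adjusted p = 0.0192), and without ZH11 replicate 2 it was -4.02 and passed (limma, adjusted p = 0.0434). Without any other single library it did not pass, with adjusted p between 0.0832 and 0.471. With both replicates numbered 2 left out, an alternative chosen after the values were seen, the wild-type mean was 8.58 times that of DGP1-OE1. The log2 difference was -3.07 and the within-genotype SD fell to 0.192 (limma, adjusted p = 5.09e-06). The libraries left out held the lowest YSL2 value of each genotype, so the fall in SD, and with it the smaller p, followed from that choice.

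**Figure D2:**
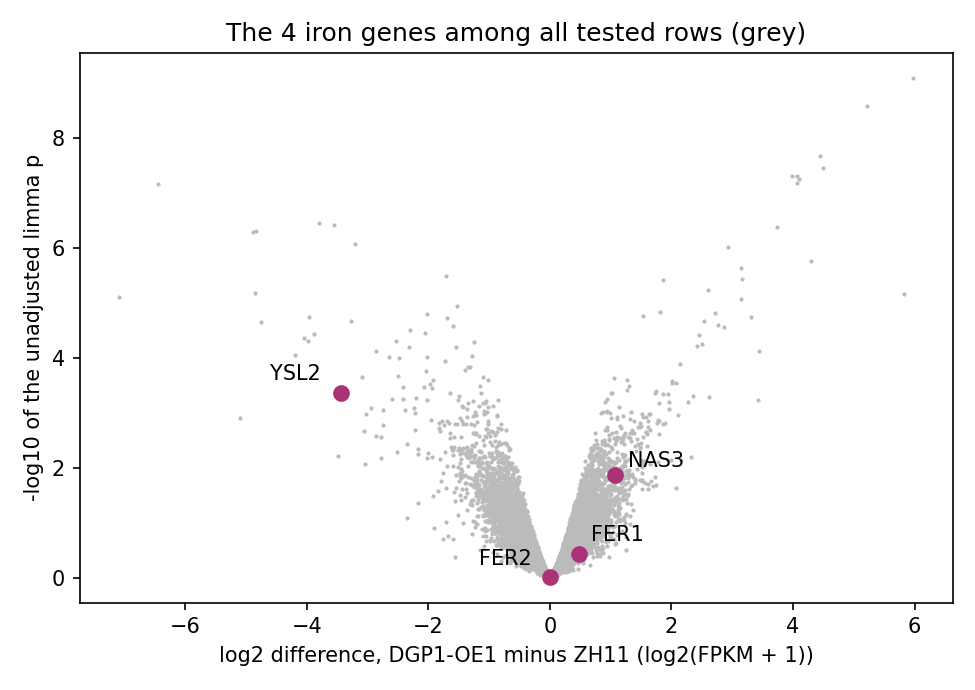
Log2 difference (DGP1-OE1 minus ZH11, horizontal) against -log10 of the unadjusted limma p (vertical) for the 18270 tested rows in grey, with NAS3, YSL2, FER1 and FER2 marked. YSL2 lies on the left at -3.44, NAS3 on the right at 1.07, and FER1 and FER2 sit near the foot of the plot.

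The loci next to YSL2 in ID order did not share a difference of this size. The nearest listed locus before it had a mean of 29.1 FPKM for ZH11 and 17.6 FPKM for DGP1-OE1, also without overlap, with a log2 difference of -0.74 (limma, adjusted p = 0.431). The nearest listed locus after it had 6.54 and 5.62 FPKM, a log2 difference of -0.16 with overlapping genotypes (limma, adjusted p = 0.942). YSL15, which is close to YSL2 in ID number, was not analysed here, and reads shared between YSL genes may have been assigned to either.

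FER1 and FER2 encode ferritins, the iron-storing proteins of plastids, whose transcripts rise in rice given excess iron. In ZH11 replicates 1, 2 and 3 FER1 had 17.6, 57.6 and 49.7 FPKM, and in DGP1-OE1 replicates 1, 2 and 3 it had 32.6, 120 and 35.8 FPKM. FER2 had 16.5, 43.9 and 30.4 FPKM in the wild type and 18.6, 88.7 and 12.9 FPKM in the overexpressor, in the same replicate order. For both genes the genotypes overlapped, DGP1-OE1 replicate 2 was the highest library, and ZH11 replicate 2 was the highest of the wild type.

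The FER1 mean was 41.6 ± 21.2 FPKM for ZH11 and 62.7 ± 49.4 FPKM for DGP1-OE1, and the FER2 mean was 30.3 ± 13.7 and 40.1 ± 42.2 FPKM (SD, n = 3 each). The log2 difference of FER1 was 0.48 with an SE of 0.51 and a 95% interval of -0.65 to 1.6 (limma, adjusted p = 0.871). That of FER2 was -0.0045 with an SE of 0.59 and a 95% interval of -1.30 to 1.29 (limma, adjusted p = 0.998). Both intervals include a log2 difference of 1, so a doubling in DGP1-OE1 was not excluded for either ferritin gene. The FER2 interval reaches about as far down as up, so a fall of that size was not excluded for FER2 either. Single libraries set the direction of both genes. Leaving out DGP1-OE1 replicate 2 gave log2 differences of -0.12 for FER1 and -0.82 for FER2. Without DGP1-OE1 replicate 3 they were 0.74 and 0.53.

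Since the ferritin genes are close paralogs whose reads may have been split between them, their FPKM were also summed. The sum was 34.1, 101 and 80.1 FPKM in ZH11 replicates 1, 2 and 3 and 51.1, 208 and 48.8 FPKM in DGP1-OE1. A single library, DGP1-OE1 replicate 2, held the top value, and the other DGP1-OE1 libraries lay inside the wild-type range. The mean of the sum was 71.9 ± 34.5 FPKM for ZH11 and 103 ± 91.5 FPKM for DGP1-OE1 (SD, n = 3 each), with a two-sided p = 0.8 in an exact permutation test. The log2 ratio of these means was 0.52, and without DGP1-OE1 replicate 2 it was -0.53. FER1 was the higher of the pair in all 6 libraries on the FPKM scale, which is per length. It made up 51.6%, 56.7% and 62.1% of the sum in ZH11 replicates 1, 2 and 3 and 63.7%, 57.5% and 73.5% in DGP1-OE1, with overlapping genotypes (exact permutation test, two-sided p = 0.2).

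Ferritin and YSL2 were ordered in opposite ways by the libraries numbered 2. Within each genotype, replicate 2 had the highest summed ferritin and the lowest YSL2. In ZH11 replicate 2 these were 101 FPKM of ferritin and 144 FPKM of YSL2, and in DGP1-OE1 replicate 2 they were 208 FPKM and 6.95 FPKM. The remaining DGP1-OE1 libraries kept the opposite order by a narrow margin, with 51.1 FPKM of ferritin and 53.4 FPKM of YSL2 in replicate 1 and 48.8 and 58.5 FPKM in replicate 3. The remaining ZH11 libraries did not: replicate 1 had less ferritin than replicate 3 (34.1 against 80.1 FPKM) and also less YSL2 (420 against 540 FPKM). Nothing in the labels ties libraries of equal number to each other. Across all tested rows, ZH11 replicate 2 was most like DGP1-OE1 replicate 2 (Pearson's r of 0.942). DGP1-OE1 replicate 2 was closer still to DGP1-OE1 replicate 1 (0.946). The part of these likenesses in the YSL2 and ferritin values was not tested.

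**Figure D3:**
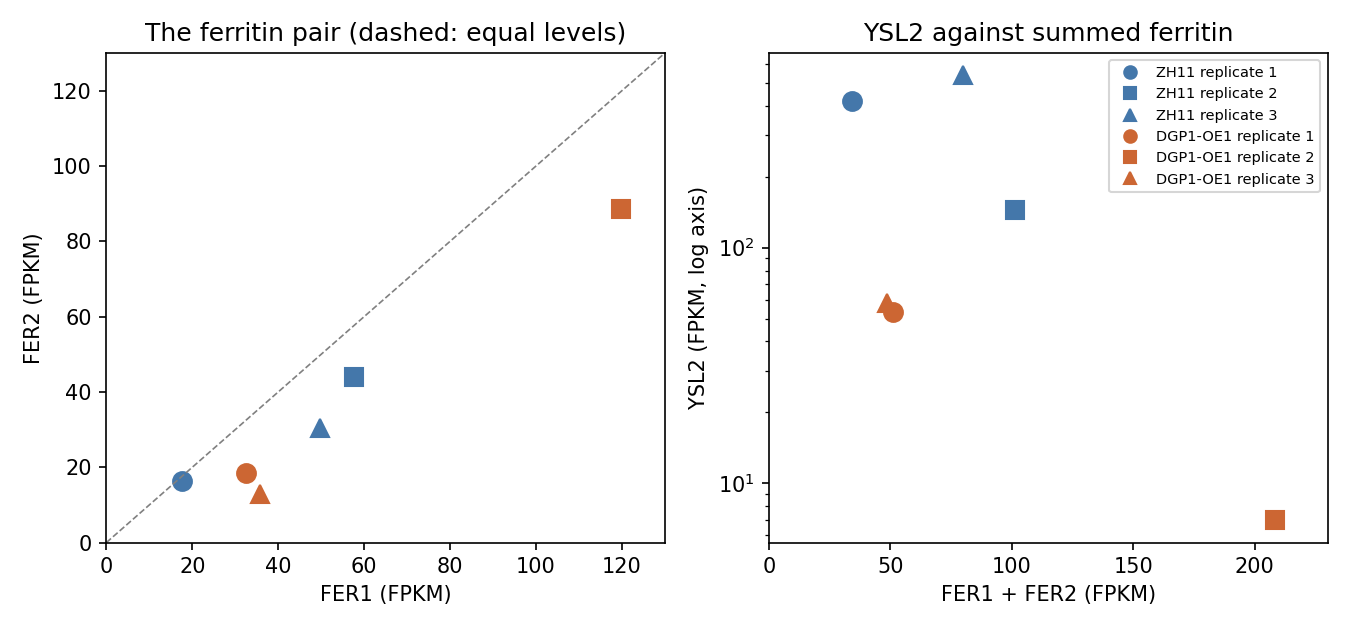
Left, FER2 against FER1 in FPKM for each library, with a dashed line of equal levels; right, YSL2 in FPKM on a log axis against the sum of FER1 and FER2 in FPKM. Colour marks genotype and symbol the replicate number. All 6 libraries lie on the FER1 side of the dashed line, and the replicate numbered 2 is the rightmost and lowest library of each genotype in the right panel.

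The rows whose pattern was most like that of YSL2 were looked up over the same libraries, so a lower level in DGP1-OE1 and a dip in the replicates numbered 2 were fixed by the choice. Likeness was Pearson's r of log2(FPKM + 1) over the 6 libraries, among 11944 other tested rows with a mean of at least 5 FPKM, as a description. The closest rows were Os01g0608101 (r = 0.996), Os04g0282400 (r = 0.996) and Os02g0244600 (r = 0.996), and 91 rows reached 0.95. Os01g0608101 went from 243, 108 and 310 FPKM in ZH11 to 39.6, 6.44 and 57.9 FPKM in DGP1-OE1, and its log2 difference was -2.95 (limma, adjusted p = 0.124). Os04g0282400 went from 246, 115 and 319 FPKM to 49.4, 16.1 and 57.0 FPKM, a log2 difference of -2.51 (limma, adjusted p = 0.0584). The sizes of the differences were not fixed by the choice, and Os02g0244600 had a far smaller range, 41.6 to 48.4 FPKM against 25.1 to 33.8 FPKM.

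For the mean of the ferritin pair the closest rows were Os04g0136900 (r = 0.994), Os12g0562300 (r = 0.991) and Os03g0765400 (r = 0.986), and 45 rows reached 0.95. In DGP1-OE1 replicate 2, the ferritin peak by which they were chosen, Os03g0765400 stood at 23.9 FPKM against 1.69 to 9.5 FPKM in the other libraries. Without DGP1-OE1 replicate 2, r was 0.982, 0.978 and 0.960. The remaining libraries were also used to choose these rows, so a high r there was favoured by the choice. The files pair none of these IDs with a name.

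**Figure D4:**
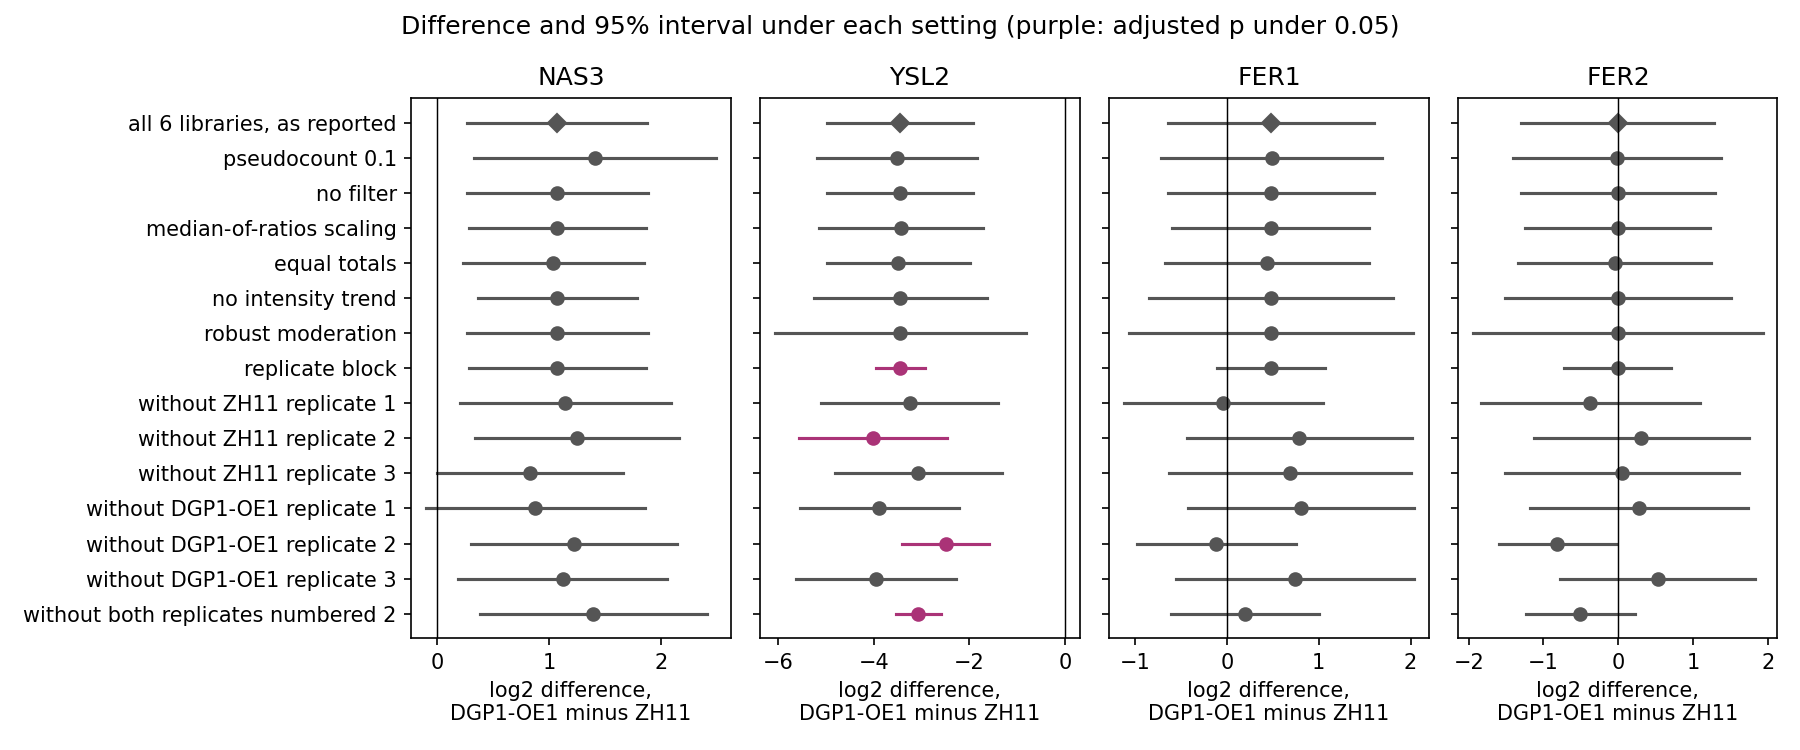
Log2 difference (DGP1-OE1 minus ZH11) with its 95% interval for NAS3, YSL2, FER1 and FER2 under every setting tried, in rows; purple marks an adjusted limma p under 0.05. The YSL2 estimate stayed between -4.02 and -2.50 and was purple in 4 settings, the NAS3 estimate stayed above 0 without passing, and the FER1 and FER2 estimates crossed 0 when single libraries were left out.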

How the data were processed

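The authors deposited 1 table of FPKM values with a column per library. The submitters' processing notes name HISAT2 2.0, StringTie 1.3.0 and Bowtie 0.12.2 with no role, and the build mm8, a mouse build that does not go with rice locus IDs; the rice build is not given in the sources used here. Overexpressor columns, headed DGP1-OE with a number, were taken as DGP1-OE1 replicates of that number, since the series has 1 overexpressor. Depth is unknown: at most 4.94% of rows under 0.5 FPKM in a pair of libraries shared 1 ratio within 0.02 log2 units, so no whole reads could be recovered.

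Rows with at least 1 FPKM in at least 3 libraries (18270) were put on the log2(FPKM + 1) scale and fitted with limma 3.58.1 (R 4.3.3), with an intensity trend, two-sided tests and Benjamini-Hochberg adjustment over all tested rows at a threshold of 0.05. The fit was tested on simulated data. Sums, the FPKM means of single members and the FER1 share were compared by exact permutation tests (scipy 1.17.1). Chromosomes were read from the digits after Os in the IDs.

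All members are named; rows most like YSL2 were added after its values were seen. The members and settings were chosen with earlier results of these data known. 0 IDs of the table matched the RefSeq gene table, so other iron genes, promoter motifs and sequences are not reported here. The planned sum of NAS1 and NAS2 was not run, as neither is among the rows used here.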

Additional observations from a re-analysis of the deposited data

How the results depend on the processing

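No setting called a member higher (0 under every alternative). The count of members called lower went from 0 to 1, always YSL2, with the replicate number as a block (1) and without both replicates numbered 2 (1), and leaving out each library gave 0 to 1. Calls over all 18270 tested rows rose as well, from 29 higher and 36 lower in the main fit to 130 and 139 with the block. Without both replicates numbered 2 they were 61 higher and 83 lower. Under the other pseudocount, no filter, both scalings, no intensity trend and robust moderation, YSL2 kept a log2 difference of -3.51 to -3.44 and did not pass, with limma adjusted p from 0.0729 (equal totals) to 0.441 (robust moderation). With the replicate block its adjusted p was 1.25e-05. The labels do not pair equal numbers. Deviations from the genotype means had correlations of 0.016 (replicates 1), 0.38 (replicates 2) and 0.14 (replicates 3) between libraries of equal number. DGP1-OE1 replicates 2 and 3 correlated best with the ZH11 library of their own number, and DGP1-OE1 replicate 1 with ZH11 replicate 3 (0.21). Deviations from a genotype mean cancel over its libraries, so these correlations constrain each other and are not separate evidence. Whether libraries of equal number share more than the number cannot be told from 3 libraries per genotype. NAS3 ranged from 0.83 to 1.41 over all settings, never past the threshold.

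Leaving out single libraries gave log2 differences of -0.12 to 0.81 for FER1 and -0.82 to 0.53 for FER2, on both sides of 0. The log2 ratio of summed ferritin ran from -0.53 to 0.85, and it was -0.19 without both replicates numbered 2. The causes were not tested. With depth unknown, no counting error can be given, and 3 libraries per genotype limit the precision.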
